A study of Triticum aestivum with 8 samples.

Results

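Of the 43603 wheat probes on the array, 210 had a transient course in the imbibing embryo. Their signal was highest at 16 h of imbibition and lower in the dry seed and at 24 h. They were chosen on group means of the log2 signal relative to the 75th percentile of each array, the scale used throughout unless spike-ins are named. A member passed the scanner's flag for signal well above background on each of the 3 arrays of 16 h, and its 16 h mean was at least 2 log2 units above dry seed and at least 1.5 log2 units above 24 h. The 210 probes carry 200 sequence names. Because both differences chose the members, their sizes are a description and no test is attached to them.

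The embryos came from Norin61, a cultivar of bread wheat, and were profiled on 8 single-colour Agilent arrays: 2 of dry seed (0 h of imbibition), 3 at 16 h and 3 at 24 h. Grains were surface-sterilised in hypochlorous acid and, for the imbibed groups, kept on wet cotton in darkness at 25 °C, with no treatment differing between groups other than time. Each array received RNA of 7 pooled embryos, and only grains with a radicle, the embryonic root, of at least 3 mm at 16 h or 7 mm at 24 h were kept, so the imbibed pools describe grains that had germinated. The hours follow the sample titles, since the description fields of the imbibed samples give 8 and 16 h in their place. Pools of a stage are not said to have been grown apart, so p-values measure only the spread between pools, which may be technical. In pooled tissue, fewer cells of a type and less RNA per cell cannot be told apart.

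A dry cereal embryo holds messenger RNA made during grain maturation. On water uptake this stored RNA is broken down or translated while transcription resumes, and genes are switched on in successive waves as respiration restarts, cell walls loosen and the radicle emerges. With 3 stages sampled, the true hour of a transcript's maximum was not measured. The array files name probes by assembly, contig or expressed-sequence identifier (names such as TA53534_4565) and give no gene description. None of the 40253 sequence names on the array matched the symbols, synonyms or accessions of the RefSeq gene table of wheat (assembly IWGSC CS RefSeq v2.1). The members are therefore described by probe and sequence name, no function is given to any of them, and neither the embryo label nor the gene-function lists could be checked against marker genes.

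Dry-seed arrays were dimmer than imbibed arrays, with an unscaled 75th percentile of 248 to 265 (linear units) against 1181 to 1739. The lowest signal well above background lay at -5.10 and -4.79 on the dry-seed arrays and between -7.37 and -6.45 on the imbibed ones (log2 relative to the 75th percentile), so a faint transcript was harder to see in dry seed. Relative to spike-ins, RNAs added to each sample in known amounts, every 16 h minus dry difference is larger by 2.88 log2 units and every 16 h minus 24 h difference is smaller by 0.61. That is also how far the median of the 30833 tested probes moved, from -0.06 to 2.82 and from 0.01 to -0.60. Since the shift is the same for every probe and the rule asks for a fall of 1.5, all members necessarily stay higher at 16 h than at 24 h relative to the spike-ins. The difference was then at least 1.5 for 122 of them.

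Few of the probes that rose also met the limit of 1.5 log2 units on the fall. Of 28528 probes well above background on all 16 h arrays, 3898 stood at least 2 log2 units higher at 16 h than in dry seed, and the members are 5.39% of these. Over all 3898 the 16 h minus 24 h difference had a median of -0.04 on this scale, on which each array is centred. It was above 0 for 48.2% of them, so the share of members depends on the limit. Relative to the spike-ins the difference is lower by the same 0.61 as for every probe. Conversely, 859 of the 28528 probes stood at least 1.5 log2 units higher at 16 h than at 24 h. Of these 859, 24.4% are members, while 465 had a 16 h mean below that of dry seed. For the 115 members well above background on both dry-seed arrays, the 16 h minus dry difference had a median of 2.93 log2 units and reached 7.66. Over all members its median was 3.41, but that counts 83 with dry-seed signals below background, whose rise is given further on as a bound. The 16 h minus 24 h difference had a median of 2.30 over all members, and for the 115 it reached 5.25. The members just inside the limit on the rise, A_99_P447727, A_99_P133460 and A_99_P536477, had differences of 2.001, 2.006 and 2.011, and the closest probes outside it, A_99_P446332, A_99_P362961 and A_99_P324301, had 1.999, 1.998 and 1.989. At the limit on the fall, A_99_P056506, A_99_P360401 and A_99_P602573 were just inside with 1.503, 1.506 and 1.506, and A_99_P649182, A_99_P308721 and A_99_P006276 just outside with 1.499, 1.492 and 1.489.

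**Figure D1:**
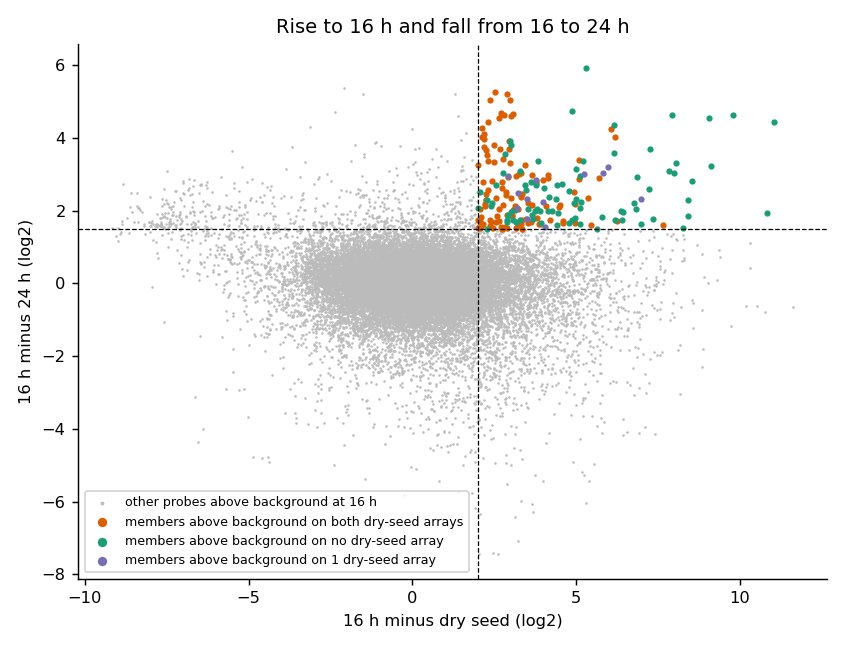
Each point is a probe well above background on all 16 h arrays, placed by its 16 h minus dry seed difference (x axis, log2) and its 16 h minus 24 h difference (y axis, log2), with dashed lines at the limits of 2 and 1.5. The 210 coloured members lie in the upper right corner, where the 115 measured on both dry-seed arrays reach a rise of 7.66. For the 83 below background on both, the place on the x axis rests on dry-seed signals that were not measurable. The bound on their rise, given in the text, cannot by construction exceed the difference drawn.

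The members took a larger part of the array's signal at 16 h than before or after. Summed over the 210 probes on the linear scale, they held 0.0786% and 0.0781% of the wheat signal on the dry-seed arrays. At 16 h they held 0.584%, 1.27% and 1.14% on replicates 1, 2 and 3, and at 24 h 0.116%, 0.258% and 0.131%. Every 16 h array was above every other array, a contrast that the choice of members had used, and 16 h replicate 1 stood lowest and 24 h replicate 2 highest within their groups.

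Those 2 arrays stood apart in nearly all members. The signal on 16 h replicate 1 was the lowest of the group for 204 of 210 members, against 36.6% of all tested probes. The mean of the other 16 h arrays exceeded it by a median of 0.98 log2 units over the members and by -0.02 over the tested probes. At 24 h, replicate 2 was the highest of its group for 191 members, against 38.5% of tested probes, and exceeded the mean of the other 24 h arrays by a median of 0.85 over the members and by -0.01 over the tested probes. For 90 members the excess was at least 1 log2 unit and for 37 at least 2. Even so, 24 h replicate 2 was above 16 h replicate 1 for 6 members only, and for 203 members every 24 h array lay below every 16 h array. That order held for 31.6% of tested probes, and since the rule used this contrast nothing is read from the count.

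**Figure D2:**
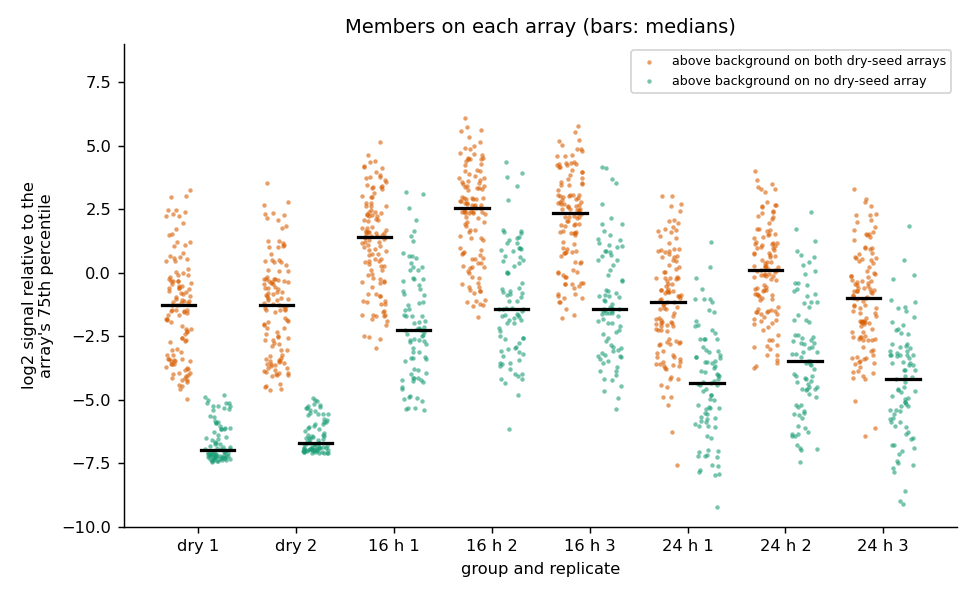
The y axis gives the log2 signal of each member relative to the array's 75th percentile and the x axis the 8 arrays by group and replicate, for the 115 members above background on both dry-seed arrays and the 83 above background on neither; 12 members above background on 1 dry-seed array are not drawn, and bars are medians. Both sets are lower on 16 h replicate 1 than on the other 16 h arrays and higher on 24 h replicate 2 than on the other 24 h arrays.

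The same 2 arrays can be placed along the overall course by the probes that are not members. Each array was projected on the line from the mean of dry seed (set to 0) to that of 24 h (set to 1) over the tested non-members. On it 16 h replicates 2 and 3 stood at 0.73 and 0.73, and replicate 1 stood at 0.83. The 24 h replicates 1, 2 and 3 stood at 1.00, 0.99 and 1.01. So the 16 h array with the lowest member signal was the one furthest towards 24 h, and the 24 h array with the highest member signal was the one least far along, by a small margin. These are single arrays, the 24 h arrays themselves set the upper end of the scale, and the part of these positions in the member levels was not tested.

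**Figure D3:**
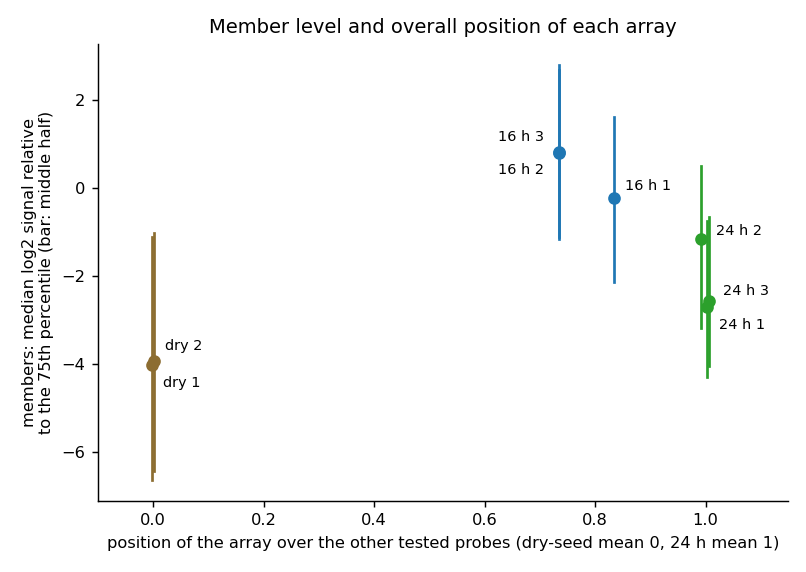
Each point is an array, placed on the x axis by its position over the tested non-member probes (dry-seed mean 0, 24 h mean 1) and on the y axis by the median log2 signal of the 210 members, with a bar from the lower to the upper quartile. The median member signal was 0.79 and 0.82 on the 16 h arrays at 0.73 and -0.23 on the one at 0.83; among the 24 h arrays it was -1.16 at 0.99, -2.72 at 1.00 and -2.57 at 1.01, which is not in order of position.

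The 2 slides gave values of the course in arrays that had not chosen the probes. The pools on them may be technical repeats, so these values describe how the arrays compare, and no test is attached. Every stage was present on both: on slide 1 as dry seed 1, the first and second 16 h replicates and 24 h replicate 1, and on slide 2 with the remaining arrays. Applied to slide 1 alone, the rule chose 226 probes, and 191 of them (84.5%) met it again on slide 2, where 1.23% of all probes above background at 16 h met it. There 221 of the 226 had a 16 h signal above both other stages, against 27.5% of all probes. The median differences of the 226 on slide 2 were 3.75 log2 units for 16 h minus dry and 2.26 for 16 h minus 24 h. Chosen on slide 2, 384 probes met the rule and 191 of them (49.7%) met it on slide 1, against 0.791% of all probes above background there. The 191 are themselves counted in both the 1.23% and the 0.791%. On slide 1, which carries the low 16 h replicate 1, their median differences were 2.52 and 1.76, and 298 of the 384 had a 16 h signal above both other stages, against 25.2% of all probes.

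Relative to the 75th percentile, 10 members were called below their dry level after the peak, a count that was 0 relative to the spike-ins and 62 with normexp background correction. Of all 30833 tested probes, 8311, 772 and 12588 were called lower on these scales in turn. Of the 210 members, 115 were well above background on both dry-seed arrays, 12 on 1 of them and 83 on neither. In the fit over all 30833 tested probes (limma, with calls at a Benjamini-Hochberg adjusted p under 0.05 and a fold of 2 or more), 10 members were called below dry seed at 24 h, against 27.0% of tested probes, and 112 were higher, against 29.3%. Both groups had entered the choice of members through their difference from 16 h, so these calls describe the members and support nothing further. All 10 lower members were measured in dry seed. Their 16 h minus dry difference was 2.12 to 3.00 and their 16 h minus 24 h difference 3.66 to 5.25 log2 units, which left them 2.67 to 6.61-fold below dry seed at 24 h (limma adjusted p between 0.00355 and 0.0434). In all 10, every 24 h array lay below both dry-seed arrays, an order that the call itself favours, so nothing is read from it.

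Probe A_99_P208251 of TA53534_4565 showed this course at its steepest. Its log2 signal was 2.22 and 2.17 on dry arrays 1 and 2, 4.12, 5.16 and 4.88 at 16 h, and -2.06, 1.48 and -1.01 at 24 h. The groups did not overlap, and 24 h replicate 2 stood well above the other 24 h arrays. The 16 h mean of 4.72 ± 0.54 (SD, n = 3) was 38.1-fold above the 24 h mean of -0.53 ± 1.82 (SD, n = 3), which was 6.61-fold below dry seed (limma log2 change -2.72, SE 0.90, adjusted p = 0.0236). For A_99_P207211 of TA53217_4565 the dry arrays gave -0.92 and -1.22, the 16 h arrays 0.45, 1.90 and 1.54, and the 24 h arrays -4.43, -2.64 and -4.13. Here too every 24 h array was below every dry-seed array (limma log2 change -2.66, SE 0.59, adjusted p = 0.00355). Probe A_99_P207216 of TA53218_4565 went from -0.26 and -0.30 through 2.03, 3.34 and 2.78 to -3.66, -0.69 and -2.62. The rise was 7.99-fold and the fall 33.0-fold, and the 24 h level was 4.13-fold below dry seed (limma log2 change -2.05, SE 0.78, adjusted p = 0.0412). Probe A_99_P207586 of TA53325_4565 went from 1.20 and 1.00 in dry seed through 3.36, 4.51 and 4.15 to -2.83, 0.71 and -1.49.

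The other 6 probes of this kind were those of TA53359_4565, TA52803_4565, CD899643, TA53227_4565, TA53175_4565 and TA53283_4565. Thus 9 of the 10 carry an assembly name whose number begins with 52 or 53, a feature singled out after the values were seen. Of 442 tested probes with such names, 13 are members and 16 were called higher at 16 h and then lower at 24 h. Over all 30833 tested probes, 210 are members and 2.03% were so called. The direction at 24 h depended on the scale: relative to the spike-ins all 10 were above dry seed at 24 h, by as little as 0.77 log2 units for A_99_P208251, and 0 members were called lower. Without 24 h replicate 2, 26 members were called lower at 24 h than in dry seed, against 8340 of the 30927 probes tested in that fit. Without 24 h replicate 1 the count was 3, against 8219 of the 31028 probes tested. Without 24 h replicate 3 it was also 3, against 8374 of 31273. A fit without a dry-seed array leaves 1 array in that group, so its count of lower members is not given.

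Close in course to these, but without a call against dry seed, were probes of TA83909_4565, TA83907_4565 and TA53221_4565. Probe A_99_P307521 of TA83909_4565 started at 1.04 and 1.08, reached 2.64, 4.48 and 4.17, and ended at -2.27, 1.65 and -2.11. The 24 h arrays lay on both sides of the dry-seed arrays, and the difference from dry seed of -1.96 log2 units did not pass the test (limma adjusted p = 0.150). The pair of probes for TA53221_4565, A_99_P207226 and A_99_P449742, gave rises of 8.47-fold and 8.06-fold and falls of 25.4-fold and 24.3-fold.

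**Figure D4:**
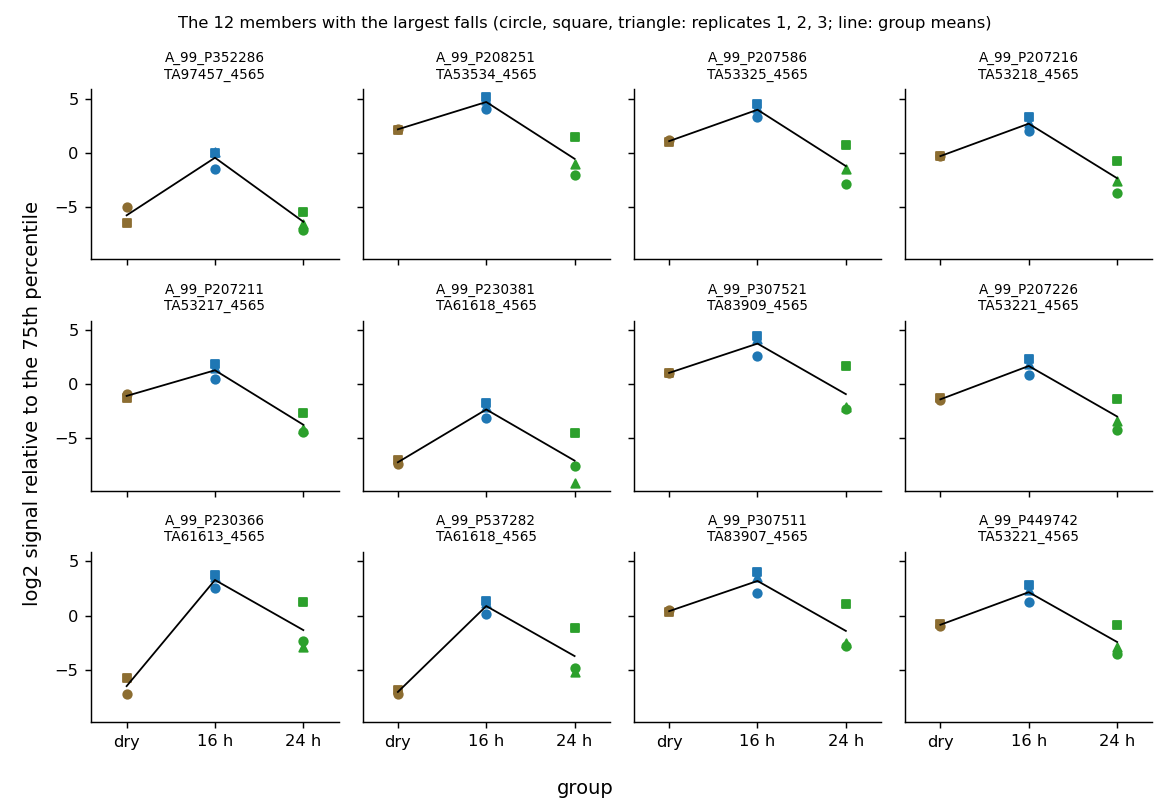
The 12 members with the largest 16 h minus 24 h difference, each in a panel with its log2 signal relative to the 75th percentile (y axis) by stage (x axis); symbols are arrays and the line joins group means. In every panel the square at 24 h, replicate 2, is the highest of its group.

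The 83 members below background on both dry-seed arrays came up from a signal that could not be measured there. Their rise is therefore given as a bound, the 16 h mean against, for each dry-seed array, the larger of the probe's signal and the lowest signal well above background. The bound was at least 2-fold for 72 of the 83, at least 8-fold for 45 and had a median of 9.81. For TC382807 it was under 1 and no fold is given. The rule itself used the dry-seed signals as measured, background or not, and only 60 of the 83 had a bound that reached the 2 log2 units of the rule.

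A_99_P230481 of TA61644_4565 had the largest bound. Its dry-seed signals of -7.34 and -7.04 were below background, and it then gave 3.11, 4.36 and 4.10 at 16 h and -1.55, 1.71 and -1.92 at 24 h. It was at least 446-fold higher at 16 h than in dry seed and had fallen 21.8-fold by 24 h. Probe A_99_P230366 of TA61613_4565 stood at 2.56, 3.76 and 3.54 at 16 h, at least 301-fold above dry seed, and at -2.38, 1.23 and -2.88 at 24 h. A_99_P230486 of TA61646_4565 stood at 1.65, 2.87 and 2.69 at 16 h, at least 163-fold above dry seed, and at -3.11, 0.28 and -3.57 at 24 h. In all of these, 24 h replicate 2 kept a signal more than 3 log2 units above the other 24 h arrays. The probes A_99_P230381 and A_99_P537282, which share the name TA61618_4565, rose at least 6.16-fold and at least 56.7-fold. The second fell by 4.62 log2 units, while the first was above background on 1 of the 3 arrays at 24 h, so its difference of 4.73 has no measured lower end on the other arrays.

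Probe A_99_P352286 of TA97457_4565 had the largest 16 h minus 24 h difference of all members, 5.91 log2 units. It was below background in dry seed, stood at -1.44, 0.04 and 0.11 at 16 h, and was above background on 1 of the 24 h arrays, with signals of -7.07, -5.44 and -6.51. Its 16 h level was at least 22.2-fold above dry seed, and its 24 h minus dry difference of -0.59 log2 units (SE 0.67) did not pass the test (limma adjusted p = 0.439). Only A_99_P486107, which carries no name but its probe number, was below background on all dry-seed and all 24 h arrays. It stood at -5.04, -4.20 and -4.20 at 16 h, at least 1.38-fold above dry seed and at least 6.16-fold above 24 h. In all, 192 members were above background on every 24 h array, so for most the fall ended at a measurable level.

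At 24 h 112 members were called above dry seed, against 29.3% of tested probes. The count was 202 relative to the spike-ins, where 27993 of all 30833 tested probes were called higher. It was 38 with normexp background correction, where 4751 of all were. Under normexp the median 24 h minus dry difference of the members turned from 1.18 to -0.31. Of the 112, 43 were measured on both dry-seed arrays, 7 on 1 and 62 on neither. All of the 62 calls rest on dry-seed signals below background. For the 62, the bound on the 24 h over dry fold was at least 2-fold for 40 and under 1 for 8. Only for the 40 does the bound reach the fold that a call requires. Among the 115 measured in dry seed, the median 24 h minus dry difference was 0.68 log2 units, within a range of -2.72 to 6.06. At the median 25.7% of the log2 rise was left at 24 h, and at most 79.2%.

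Among the members measured in dry seed, A_99_P333996 of TA91760_4565 had the largest rise. It went from -3.80 and -3.67 through 3.27, 4.48 and 4.02 to 2.05, 2.66 and 2.28. The rise was 202-fold, the fall 3.02-fold, and 24 h remained 66.8-fold above dry seed (limma log2 change 6.06, SE 0.34, adjusted p = 2.17e-06). Probe A_99_P003671 of CD937018 started at -3.23 and -2.82, reached 2.99, 3.30 and 3.43, and ended between 1.35 and 1.71, with a mean of 1.52. Its replicates were close at every stage, with SDs of 0.29 (n = 2), 0.23 (n = 3) and 0.18 (n = 3), and 24 h stayed 23.4-fold above dry seed (limma adjusted p = 6.83e-07). A_99_P477107 of TC420586 rose 43.9-fold and fell 3.07-fold, leaving 24 h 14.3-fold above dry seed (limma adjusted p = 1.84e-06). Probe A_99_P323181 of TA88503_4565, below background in dry seed, stood at 3.19, 3.94 and 4.14 at 16 h and at 1.19, 2.38 and 1.85 at 24 h. At 24 h it was still at least 108-fold above dry seed. Its limma adjusted p of 7.65e-07 was computed with the dry-seed signals below background.

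Steadier replicates were found in A_99_P215086 of TA56144_4565. It started at -1.86 and -1.45, reached 2.10, 2.44 and 2.46 and ended at -0.67, -0.29 and -0.60, a rise of 15.8-fold and a fall of 7.23-fold. Its 24 h level was 2.19-fold above dry seed (limma log2 change 1.13, SE 0.19, adjusted p = 0.000883). Over all members the SD between arrays had a median of 0.60 log2 units at 16 h and 0.51 at 24 h, and at its largest reached 1.57 and 2.91. The largest at 24 h was that of CA639508 (A_99_P516447), with -9.23, -3.46 and -7.02, of which 1 was above background, against -3.36, -2.93 and -3.29 at 16 h. In contrast to most members, A_99_P360401 of TA100136_4565 had a far higher signal on 16 h replicate 1 than on the others, with -3.12 there and -6.14 and -5.35 on the other 16 h arrays.

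**Figure D5:**
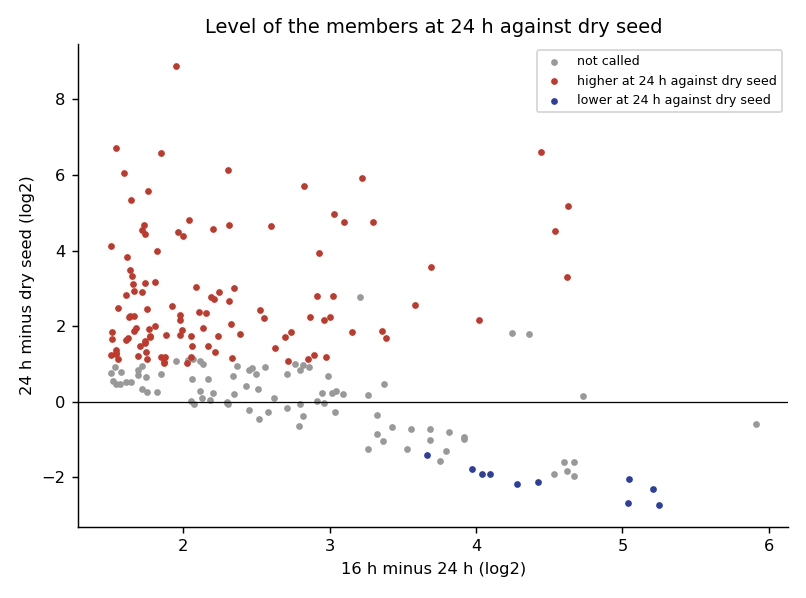
Each point is a member, placed by its 16 h minus 24 h difference (x axis, log2) and its 24 h minus dry seed difference (y axis, log2), and coloured by its call at 24 h against dry seed. The 10 members called lower lie at falls of 3.66 to 5.25, and the 43 and 7 called higher with a measured signal on both or on 1 dry-seed array lie up to 6.06 above dry seed. The other 62 called higher are drawn against dry-seed signals below background.

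More than 1 member probe was found for 8 names, which together hold 18 members. Each of these probes had met the rule, so their shared course was fixed by the choice and is a description only. The share over all names with several probes was not computed. All 4 probes of AJ001117 that are members fell by like amounts, 2.31, 2.24, 2.19 and 2.16 log2 units, after rises of 6.98, 3.99, 4.96 and 4.50. One of them, A_99_P158637, went from -0.34 and -0.32 through 3.98, 4.87 and 5.04 to 1.66, 3.64 and 2.01. Both probes of AB078882 rose by 3.91 and 3.88 and fell by 1.63, and both of TA108995_4565 rose at least 49.0-fold and at least 36.3-fold and fell by 2.20 and 1.96. For TA54757_4565 the falls were 2.49 and 2.47, and for TA77317_4565 they were 2.35 and 1.64.

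A further 11 probes share a name with a member without meeting the rule, which gives a readout the rule did not use. Of these, 6 were called higher at 16 h than in dry seed and lower at 24 h than at 16 h (limma, as above), against 2.03% of the tested probes. They are probes of CJ931895, EF368356, TA79536_4565, CN012632, TA99516_4565 and AK332497. They had been left out of the members by small margins, with rises of 1.82 to 4.93 and falls of 1.33 to 1.61 log2 units. The 11 exclude by construction any probe that met the rule, so the share is not one over all probes of these names. The probes of AK332497 disagreed. Its member probes A_99_P611487 and A_99_P602573 rose by 2.07 and 2.74, and A_99_P621912 by 2.09, whereas A_99_P064180, A_99_P600267 and A_99_P621734 had 16 h minus dry differences of -0.19, -0.03 and -0.08. All 6 fell alike from 16 to 24 h, by 1.45 to 1.63 log2 units. Opposite courses were seen under TA59082_4565, whose other probe A_99_P424082 fell by 16 h (limma log2 change -2.27, adjusted p = 0.000124). Probe A_99_P450562 of TA92332_4565 also stood lower at 16 h than in dry seed (limma log2 change -1.13, adjusted p = 0.00156), and fell further by 24 h.

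Some members have neighbouring assembly numbers, as in TA70353_4565, TA70355_4565, TA70359_4565 and TA70360_4565 or TA71320_4565 to TA71322_4565. Of 195 tested non-member probes whose assembly number lies within 5 of a member's, 3 (1.54%) were called higher at 16 h and then lower at 24 h, against 2.03% of all tested probes. Within 2 numbers it was 3 of 70 (4.29%) and within 10 it was 6 of 401. These windows leave out all members by construction, whereas the 2.03% counts them, and 95.7% of the members were so called. The shares are therefore not like for like, and nothing is read from the comparison. By kind of name, 51.0% of members carry a TA assembly name, against 46.2% of tested probes, 30 (14.3%) a TC contig name, against 11.5%, and 9 (4.29%) an AK or BT accession, against 9.29%.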

How the data were processed

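Agilent Feature Extraction 10.7.3.1 quantified the arrays, per the file headers, and the deposited processed signal is a linear intensity, background-subtracted and detrended within an array and not scaled between arrays. Spots of a probe were averaged on the log2 scale and the 75th percentile over the 43603 non-control probes was subtracted. The deposited series table holds log2 values that followed these values centred per probe (correlation of at least 0.99995 for each column). Its columns for 24 h replicates 2 and 3 matched each other's scanner files, so it was used as an alternative only. Its column medians were 0.47 and 0.50 in dry seed and between -0.07 and 0.00 in the imbibed groups.

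Members were found by the stated rule with all spots. For tests, 3 to 15 outlier-flagged spots per array were left out. Probes that passed the scanner's above-background flag throughout 1 or more groups were fitted with limma 3.58.1 in R 4.3.3 over all 8 arrays, a mean per group, with Benjamini-Hochberg adjustment over the 30833 tested probes. A probe of several spots counted as above background when at least 50% of its spots were. Scaling to 8 spike-in probes (those above background on all arrays, unsaturated) was an alternative. The fit was tested on simulated data with known changes. Normexp was run on median spot signals. The array number limits the precision.

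The members, lists and tests were chosen with earlier results of these data known. Named members were drawn from the 12 with the largest falls, the 10 brightest at 16 h, the 10 with the largest rise measured in dry seed, the 5 with the smallest SD at 16 h among those above the median in both differences, those of names with several members and those at the limits of the rule, with others named where a count or value singled them out after it was seen. Replicate numbers were not treated as pairs. Word lists for gene function and tissue could not be applied, since 0 probes carry a description.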

Additional observations from a re-analysis of the deposited data

How the results depend on the processing

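The number of members, 210 as reported, was 105 with normexp background correction (offset 50, 102 of them shared with the 210), 115 and 114 when signal above background was also required on both dry-seed arrays or on all 8 arrays, 108 and 520 with the limits raised or lowered by 0.5, and 384 on slide 2 alone. Relative to the spike-ins the number was 223, and only 122 of these are among the 210. Leaving out single arrays gave 177 to 302, the most without 16 h replicate 1. The members called at 24 h against dry seed, 112 higher and 10 lower, were 202 and 0 relative to the spike-ins and 38 and 62 with normexp. Over all 30833 tested probes, the calls moved from 9039 higher and 8311 lower to 27993 and 772 relative to the spike-ins. With normexp they were 4751 and 12588. With only probes above background on all 8 arrays, which leaves 114 members tested, 44 members were higher, against 5413 of all 23843 probes tested. Over all tested probes the count of lower calls was 8292 with only the groups compared, 8342 with array weights and 8088 at an adjusted p below 0.01. Among the members it was 6, 22 and 2. Leaving out single imbibed arrays gave 102 to 120 members higher and 3 to 26 lower. Over all probes tested in those fits, 8934 to 9106 were higher and 8219 to 8540 lower. The 6 probes that share a name and a course with a member stayed within 4 to 6 under all fits, and were 6 without any single array. The 3 neighbours by assembly number were 6 relative to the spike-ins, 1 with normexp and 19 with no fold minimum, and 2 to 4 without single arrays.

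The median over members of 16 h minus dry, 3.41 log2 units, was 6.29 relative to the spike-ins and 2.13 with normexp, and 3.26 to 3.70 without single arrays. The median of 24 h minus dry, 1.18, was 4.67 relative to the spike-ins and turned to -0.31 with normexp. The median of 16 h minus 24 h stayed between 1.69 and 2.59. With normexp, 27 members, all below background in dry seed, had a 16 h mean below dry seed. Among named members these were A_99_P516447 (-0.29), A_99_P384272 (-0.71), A_99_P133460 (-1.11) and A_99_P360401 (-1.06). Also with normexp, the 24 h minus dry difference turned negative for A_99_P537282 (-0.53), A_99_P373362 (-1.15), A_99_P517172 (-0.93), A_99_P583877 (-0.23) and A_99_P056506 (-0.24). Relative to the spike-ins it turned positive for A_99_P208251 (0.77), A_99_P207586 (1.19), A_99_P207216 (1.45), A_99_P207211 (0.83), A_99_P205816 (1.33), A_99_P207256 (1.58) and A_99_P207456 (2.08). The spike-in shift is the same constant for every probe in a given difference. The normexp setting also started from median spot signals in place of processed signals. It added the same offset of 50 on every array before the log2, although the dry-seed arrays were dimmer. These choices were not separated. The cause of the other changes was not tested. With the replicate number as a block, 113 members were higher and 11 lower at 24 h and no count moved by over 1.5 times. Same-numbered 16 h and 24 h arrays correlated in their deviations at 0.12, 0.09 and -0.04. For 16 h replicates 1 and 2 the same-numbered 24 h array correlated best, with the next at 0.11 and -0.02. For 16 h replicate 3 the best was 24 h replicate 2 (0.13). These values do not settle whether the numbers pair the samples, and the main fit used no pairing.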
